A study of Ovis aries with 2 samples.

Results

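The genes described here belong to name families whose proteins mostly process RNA, aid transcription elongation or act in translation. They were chosen by name from the genes that the authors assigned to PPARG ChIP-seq intervals in the sheep conceptus. Names starting with HNRNP, RBM, SRSF, SF3, SNRP, PRPF, DDX, DHX, CPSF, LSM, EIF or SUPT were kept, together with DENR and DARS. The rule found 28 genes in 30 of the 2288 PPARG intervals, out of 1833 gene names in the table. The CpG island, promoter and distance entries, and the heights, played no part in the rule itself. However, the heights of HNRNPH3, RBM39, SUPT5H, DENR and DARS were already known when the families were picked, so the main values are also given without these 5 genes. The families as a whole were chosen with earlier results of these data known, and leaving out 5 genes does not undo that. LSMD1 is caught by its name alone, since it is an older name of NAA38, a protein acetyltransferase subunit gene.

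The data came from 1 ChIP library, for which chromatin was pulled down with rabbit polyclonal IgG raised to PPARG, and 1 input library, for which it was not. Each was made from conceptuses of 4 columbia/ramboulette crossbred ewes on day 14 of pregnancy; these were pooled, and no treatment is stated. A conceptus is the embryo with its extraembryonic membranes, so the chromatin mixes cell types, and weak occupancy in many cells cannot be told apart from strong occupancy in few. An interval list holds no expression values, so the tissue could not be checked against marker genes. There are no replicate libraries and the read totals are unknown. The percentages below therefore carry 95% Wilson intervals, and the medians carry intervals from their order statistics. Both cover counting error over intervals or genes only, and no test was made.

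PPARG is a ligand-activated nuclear receptor that pairs with a retinoid X receptor on DNA and is best known for its control of lipid genes. RNA factors act at every later step of expression. Heterogeneous nuclear ribonucleoproteins, SR proteins and many RBM proteins bind new transcripts and steer splicing. PRPF, SF3, SNRP and LSM proteins build the spliceosome, DEAD-box and DEAH-box helicases remodel RNA and ribonucleoproteins, and EIF proteins load ribosomes onto messenger RNA. Such genes are used by nearly all cells and often start in CpG islands, which are GC-rich stretches of mostly unmethylated DNA.

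PPARG intervals at these genes lay mostly at the gene start. The summit was within 1 kb of the member's own start in 21 of 30 cases (70.0%, 95% interval 52.1 to 83.3), against 446 of the 2130 other pairs of an interval and a gene (20.9%, 19.3 to 22.7), and 21.6% of all pairs. A CpG island was marked in 20 of the 30 intervals (66.7%, 48.8 to 80.8), against 548 of 2258 other intervals (24.3%, 22.5 to 26.1), and 24.8% of all intervals. Among intervals within 1 kb of a start the shares were close, at 85.7% for members and 84.3% for others. The authors' promoter mark was present in 29 of the 30 intervals, against 720 of 2258 others (31.9%). All member intervals have a gene assigned by construction. Among the 1488 other intervals that had one, 48.4% carried the promoter mark, 32.1% held a CpG island, and 26.1% had a summit within 1 kb of an assigned start. Without the 5 genes of known height, 16 of 24 member intervals (66.7%) lay within 1 kb and 15 (62.5%) held a CpG island.

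Having an interval at all was about as common in these families as among other genes. Of 238 family genes named in a RefSeq gene table, 27 had an assigned interval (11.3%, 7.91 to 16.0), against 1494 of 16149 genes outside the families (9.25%, 8.81 to 9.71), and 9.28% of all 16387 named genes. Without the 5 genes of known height the family share was 9.44%. A site at the gene start itself, within 1 kb, was found for 20 family genes (8.40%, 5.51 to 12.6), against 359 genes outside the families (2.22%, 2.01 to 2.46), and 2.31% of all named genes. Without the 5 genes this share was 6.44%. The families were chosen with earlier results of these data known, so these shares describe the list and were not tested. Leaving out DENR and DARS, which were named singly, gave family shares of 10.6% for any site and 7.63% at the start.

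**Figure D1:**
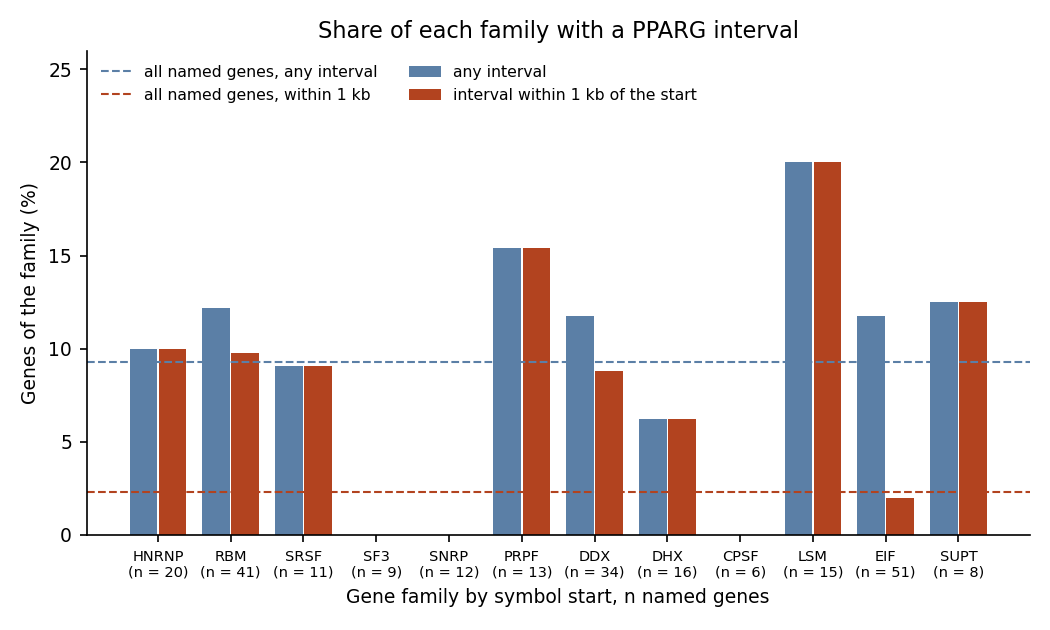
Share of the named genes of each family with a PPARG interval anywhere (blue) or no more than 1 kb from its start (red), in percent, by family, with dashed lines for all 16387 named genes at 9.28% and 2.31%. SF3, SNRP and CPSF have no bar, and EIF has 6 genes with an interval but 1 within 1 kb. DENR and DARS, which the rule names singly, are not drawn.

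Of 51 EIF genes, 6 had an interval (11.8%) and only EIF3L had one within 1 kb of its start. Of 41 RBM genes, 5 had an interval and 4 of these lay within 1 kb. Of 34 DDX genes, 4 had an interval and 3 lay within 1 kb. The table listed 2 of 20 HNRNP genes, 2 of 13 PRPF genes, 1 of 11 SRSF genes, 1 of 16 DHX genes and, by current symbol, 1 of 8 SUPT genes, and each of these had an interval within 1 kb. FAM48A, an older symbol of SUPT20H that the name rule does not catch, had an interval 42626 bp downstream of its start, and counting it would give 28 of 238 family genes (11.8%). LSM had 3 of 15 genes, all with an interval within 1 kb, and LSMD1 besides, a name that the RefSeq table lacks. No interval was listed for the 9 SF3 genes of the U2 snRNP, the 12 SNRP genes of snRNP proteins or the 6 CPSF genes of messenger RNA cleavage. With so few genes per family, and a list that holds only intervals above an unstated threshold, these counts do not rank the families.

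The height of an interval is the peak value of the authors' density track within it, in units whose scaling is unknown. The 30 member intervals ran from 10 to 109 with a median of 30 (95% interval 22 to 41), against a median of 22 for the 2258 other intervals. All PPARG intervals spanned 10 to 155, with quartiles of 17 and 31. Of the member intervals 15 (50.0%, 33.2 to 66.8) exceeded the upper quartile, against 535 others (23.7%) and 24.0% of all intervals. Among the 100 highest intervals were 7 of the members (23.3%, 11.8 to 40.9), against 4.12% of the others and 4.37% of all. All 5 genes of known height were among these 7. Without their intervals, 2 of 24 member intervals were among the 100 highest, 10 (41.7%, 24.5 to 61.2) exceeded the upper quartile, and the median was 25.

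The taller member intervals were mostly at CpG islands near starts. Of the 10 member intervals with a height of 40 or more, all 10 held a CpG island, 9 lay within 1 kb of the start and 8 were assigned to the member alone. Among the 305 other intervals of that height, 90 held a CpG island and lay within 1 kb of a start, against 328 of all 2258 others. The 5 genes of known height gave 5 of the 10 member intervals. Of the other 5 member intervals, all held a CpG island and 4 lay within 1 kb. The 18 member intervals with a CpG island within 1 kb had a median of 37 (28 to 93), and the 13 without the 5 genes had a median of 32 (25 to 44). The 328 other intervals of that kind had a median of 27.5 (25 to 30). Farther than 1 kb from the start the 9 member intervals had a median of 22 (17 to 24), against 21 (21 to 22) for the 1869 other intervals with no start that near. The 95% intervals of both pairs of medians overlapped. Member intervals had a median mean signal of 11.6, against 10.4 for the others, and a median length of 974 bp, against 876 bp.

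**Figure D2:**
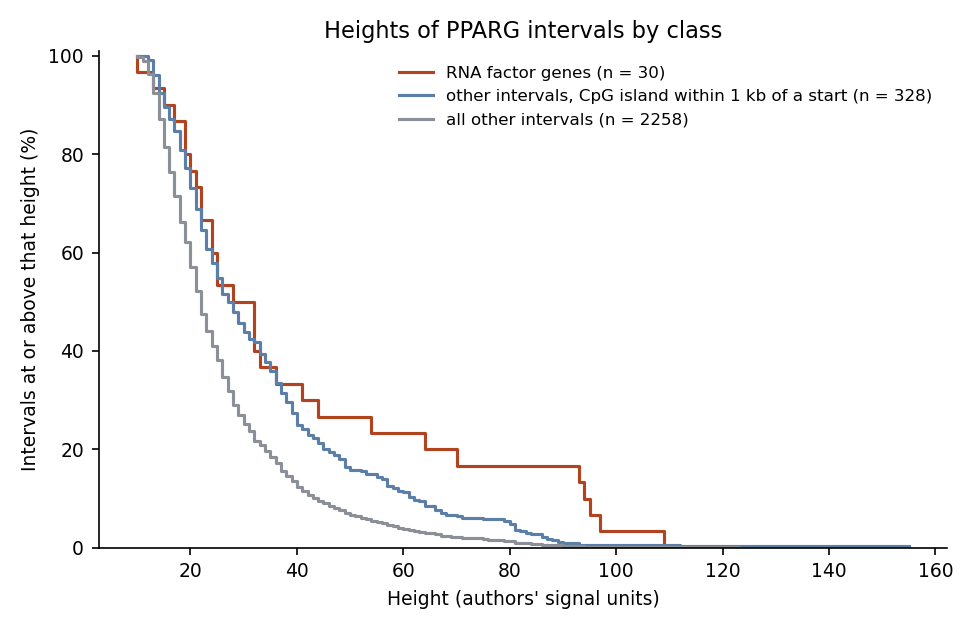
Percent of intervals (vertical axis) at or above each height in the authors' signal units (horizontal axis) for the 30 RNA factor intervals (red), the 328 other intervals with a CpG island within 1 kb of a start (blue) and all 2258 other intervals (grey). At a height of 31 the shares are 50.0%, 43.9% and 25.2%, and at 90 they are 16.7%, 1.22% and 0.487%; without the 5 genes of known height, the RNA factor shares are 41.7% at 31 and 0 of 24 intervals at 90.

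The splicing and RNA-binding families made the largest group. LSMD1 left out, it had 13 genes in 14 intervals, of which 12 lay within 1 kb of the start and 10 held a CpG island. HNRNPH3, which regulates alternative splicing, had the highest interval of all members. Its height was 109, rank 4 among PPARG intervals, at 70 bp upstream of the start (chromosome 25, 24570817 to 24571789 in build Oar_v3.1, as the file gives it, like all positions here). HNRNPK, a poly(C)-binding relative, reached only 25 at 802 bp upstream (chromosome 2, 35544165 to 35544767), and its start lay outside the interval. Both held a CpG island, and they lay near opposite ends of the heights of member intervals with one.

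The RBM genes spanned a similar range. RBM39, a splicing coactivator related to U2AF, had 94 at 53 bp upstream (chromosome 13, 64499753 to 64500930). RBM26, an RNA-binding zinc finger protein, had 41 at 416 bp upstream (chromosome 10, 54994197 to 54995189), in the one member interval with 2 CpG islands. RBM15, part of the complex that methylates adenosine in messenger RNA, had 32 at 508 bp upstream (chromosome 1, 86787125 to 86788061). These were assigned to no other gene. The other RBM intervals were lower and held no CpG island. RBM28, a nucleolar protein of ribosome assembly, had 20, with the summit 1426 bp inside the gene (chromosome 4, 92598745 to 92599958). RBM41 had 13, 194 bp inside the gene on the X chromosome (121154341 to 121155062), one of the lowest member intervals although it lay at the start.

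SRSF10, an SR-like splicing regulator, had 70 at 264 bp upstream (chromosome 2, 241825167 to 241826197), rank 54 among PPARG intervals and the highest member outside the 5 genes of known height. PRPF39, a partner of the U1 snRNP at the 5′ splice site, had 28 at 136 bp upstream in an interval with a CpG island (chromosome 18, 53757111 to 53757950). FAM179B was assigned to the same interval with its start 80004 bp away, so PRPF39 had the nearer start.

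LSM3, a subunit of the ring that binds the end of U6 small nuclear RNA, had 54, 55 bp inside the gene (chromosome 19, 57878177 to 57879153). The interval also lay 319 bp upstream of XPC, a DNA repair gene, so the signal cannot be assigned to one of the starts. LSM2, another subunit of that ring, had 2 low intervals on chromosome 20, with 19 at 973 bp upstream (26666348 to 26667145) and 10 at 1709 bp upstream (26665696 to 26666269). They were only 79 bp apart, held no CpG island and were both assigned also to HSPA1A, HSPA1L and VARS. The lower one ranked 2281 of the 2288 intervals. LSM14A, a translational repressor of cytoplasmic granules, had 15 at 163 bp upstream (chromosome 14, 43901194 to 43901808), the lowest member interval with a CpG island. LSMD1, caught by its name alone, had 32 at 342 bp into the gene in an interval shared with 3 other genes (chromosome 11, 27104369 to 27105904).

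**Figure D3:**
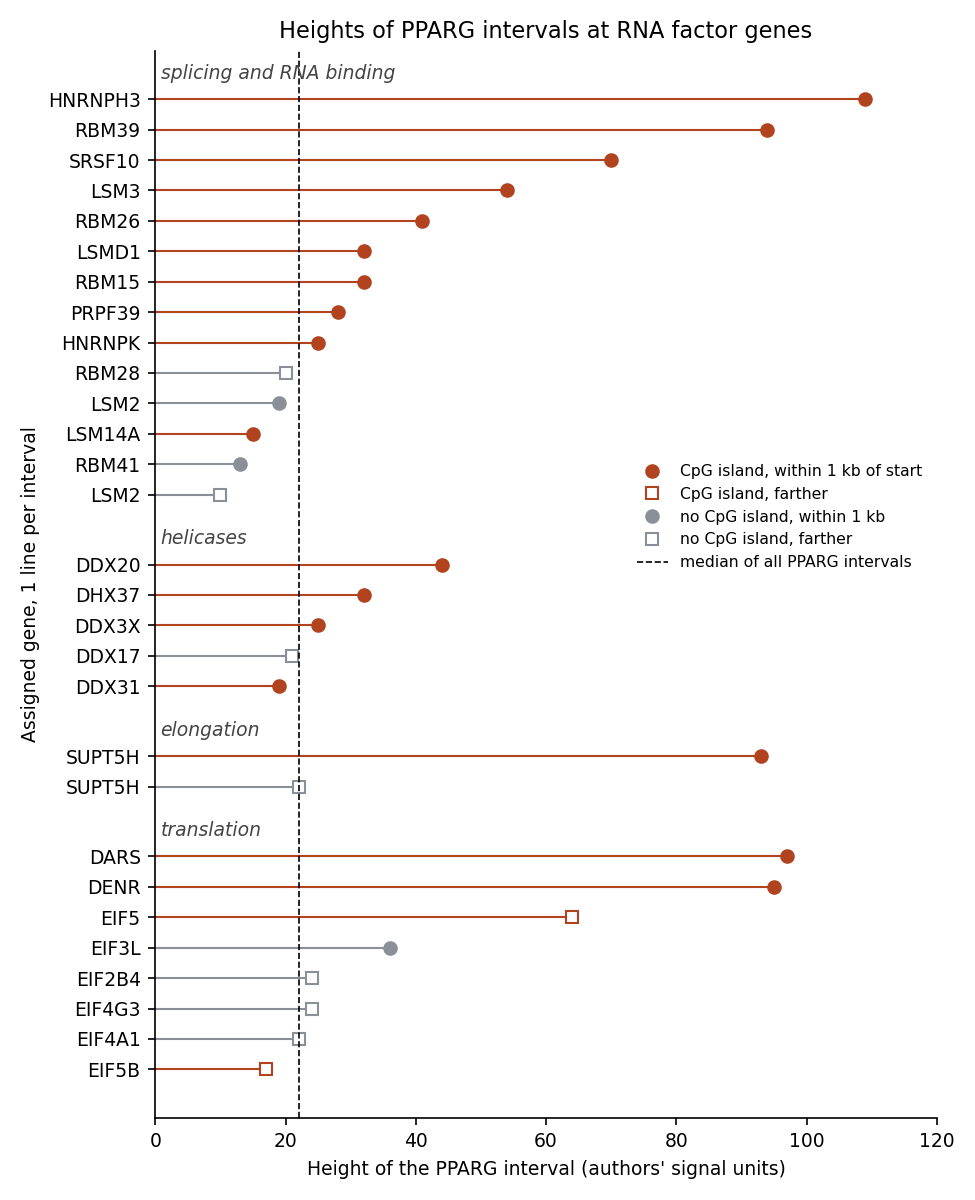
Height of 29 of the PPARG intervals (horizontal axis, authors' signal units) by assigned gene and role, with colour for a CpG island, filled circles for summits within 1 kb of the start and open squares for farther ones; the dashed line is the median of all PPARG intervals, 22. All 10 intervals of 40 or more hold a CpG island, and EIF5 at 64 is the only one of them beyond 1 kb.

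The 5 helicase genes had 1 interval each, with heights from 19 to 44 and none among the 100 highest. Of these, 4 lay within 1 kb of the start and the same 4 held a CpG island. DDX20, a helicase of the SMN complex that assembles snRNPs, had 44, with the summit 278 bp inside the gene (chromosome 1, 88310613 to 88311783). DHX37, a ribosome assembly helicase, had 32 at 138 bp upstream (chromosome 17, 50437248 to 50438144), and BRI3BP started 139 bp from the same summit. DDX3X, which helps translate structured messenger RNAs, had 25, 190 bp inside the gene on the X chromosome (38479383 to 38480284). DDX31, a nucleolar helicase, had 19 at 57 bp upstream (chromosome 3, 4128031 to 4128632), with the start of GTF3C4, a subunit of an RNA polymerase III factor, 58 bp from the summit. DDX17, a splicing and transcription cofactor, was the exception, with 21 at 5867 bp upstream and no CpG island (chromosome 3, 214172600 to 214173375).

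SUPT5H encodes the large subunit of the elongation factor that holds and releases RNA polymerase II near promoters. It was the one SUPT gene listed under that name, with 2 intervals on chromosome 14. The first had a height of 93 with its summit 8 bp upstream of the start (48297278 to 48298276), the closest summit of all members, and RPS16 was also assigned to it with a start 5087 bp away. The second, at 22, lay 33720 bp downstream of the start (48330860 to 48331856), held no CpG island and was also assigned to TIMM50 and DLL3. The gene's tall signal was therefore at its start, and the distal interval equalled the median of all intervals.

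The 8 translation genes included some of the highest and some of the most distant intervals. DARS, the cytosolic aspartyl-tRNA synthetase, had 97 at 149 bp upstream (chromosome 2, 173736368 to 173737422). DENR, which acts in ribosome recycling and reinitiation, had 95 at 917 bp upstream (chromosome 17, 52346444 to 52347524). The DENR start lay outside its interval whichever strand the gene is on, unlike the starts of HNRNPH3, DARS, RBM39 and SUPT5H, which lay inside theirs. Both genes were named singly in the rule after their heights were known, so they add nothing to the comparison of families.

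The initiation factors were farther from their starts. EIF5, which triggers GTP hydrolysis on the scanning ribosome, had 64 at 1619 bp upstream with a CpG island (chromosome 18, 66674733 to 66675456), rank 76 and assigned to EIF5 alone. EIF3L, the only one of 12 EIF3 subunit genes with an interval, had 36 at 245 bp upstream (chromosome 3, 213652032 to 213653264), the highest member interval without a CpG island. EIF5B, which joins the ribosomal subunits, had 17 at 1002 bp upstream (chromosome 3, 101925550 to 101926305) in an interval with a CpG island that was shared with TXNDC9. EIF2B4, the only one of 5 EIF2B subunit genes with an interval, had 24, with the summit 2226 bp inside the gene (chromosome 3, 34303233 to 34304316) and shared it with GTF3C2, SNX17 and ZNF513. EIF4G3, a scaffold of the cap-binding complex, had 24, with the summit 131696 bp inside the gene (chromosome 2, 244594719 to 244595523), the one member interval without a promoter mark. EIF4A1, the helicase of that complex, had 22 at 6397 bp upstream (chromosome 11, 26847839 to 26848828), in an interval also assigned to TNFSF12, TNFSF13 and SENP3. Thus 4 of the 6 EIF intervals held no CpG island and 5 lay beyond 1 kb.

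**Figure D4:**
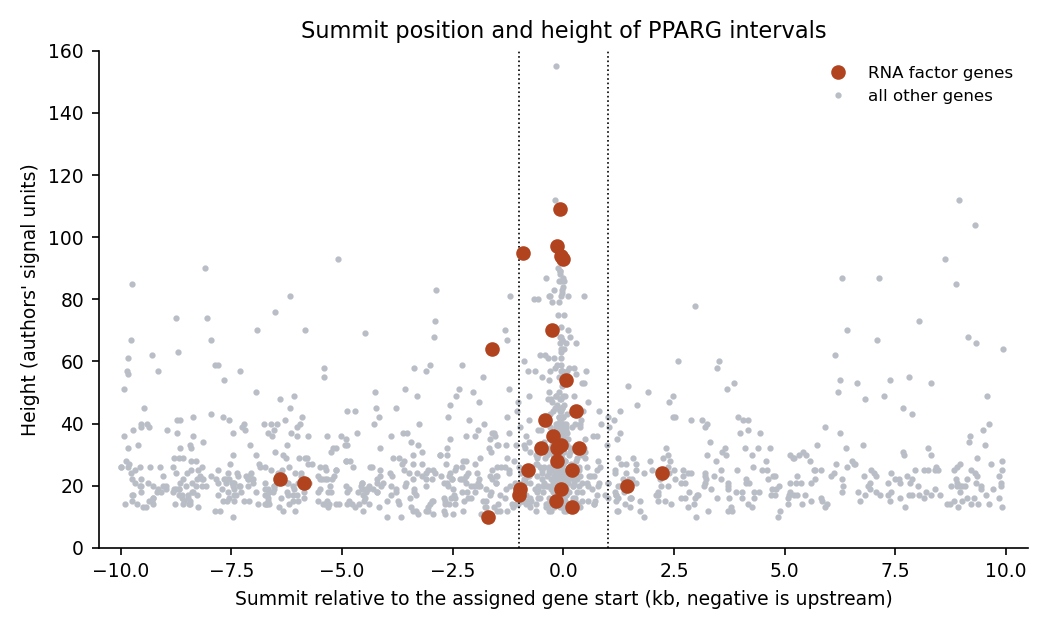
Height of each interval in the authors' signal units (vertical axis) against the position of its summit relative to the assigned gene start in kb (horizontal axis, negative is upstream), for RNA factor genes (red) and all other genes (grey) within 10 kb of a start; dotted lines mark 1 kb. Most red points lie between the lines, and the EIF4G3 interval and the second SUPT5H interval fall outside the plot.

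Within the 21 intervals near starts, summit positions were set beside those at other genes. The summit lay upstream of the start in 16 of 21 (76.2%, 54.9 to 89.4), against 298 of 446 other pairs (66.8%, 62.3 to 71.0). The median distance was 190 bp (70 to 342), against 144.5 bp (121 to 188) for the others. The start was inside the interval for 17 of the 21 on either strand, outside it for DENR, HNRNPK and LSM2, and dependent on the strand for RBM15. The members closest to the 1 kb limit were LSM2 at 973 bp inside it and EIF5B at 1002 bp outside it. Another gene started within 1 kb of the same summit in 4 of the 21 intervals (19.0%), those of LSM3, LSMD1, DHX37 and DDX31, against 24.4% of the other pairs.

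Sharing between genes limits which gene an interval belongs to. Of the 30 member intervals, 16 (53.3%, 36.1 to 69.8) were assigned to at least 1 more gene, against 426 of 1488 other intervals with a gene (28.6%, 26.4 to 31.0). No interval was shared by 2 members. None of the 5 input intervals overlapped a member interval, so no input height is listed at any member. Such overlap was rare everywhere, since leaving out intervals that overlapped the input took the other intervals from 2258 to 2253. The members lay on 14 chromosomes, with 5 intervals each on chromosomes 2 and 3. Apart from the LSM2 pair, the nearest other PPARG interval was over 5 kb away from each member interval.

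Other genes of the same processes gave a mixed comparison. Among all named genes, 9.28% had an interval and 2.31% had one within 1 kb of the start. Of 139 genes of splicing, RNA decay, export and elongation outside the prefixes, 24 had an interval (17.3%, 11.9 to 24.4) and 11 had one within 1 kb of the start (7.91%, 4.48 to 13.6). The highest of these were SMG5 of nonsense-mediated decay, with 55 at 99 bp upstream, and CDC5L of the spliceosome, with 48 at 281 bp upstream. U2AF2, which recognises the 3′ splice site, had 37 at 1224 bp upstream, and CCNT1, the cyclin of the elongation kinase, had 34 at 118 bp upstream. Of 63 genes of tRNA charging, elongation and termination, 5 had an interval (7.94%, 3.44 to 17.3) and MTRF1L, a mitochondrial release factor gene, was the only one within 1 kb (1.59%), with 38 at 27 bp upstream. QARS, the glutaminyl-tRNA synthetase gene, was assigned an interval of 93 that lay 8629 bp downstream of its start and was shared with QRICH1. VARS was listed only through the 2 intervals of LSM2.

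Genes for cytosolic and mitochondrial ribosomal proteins, which also work in translation, were set beside the members. Of 156 such genes, 26 had an interval (16.7%, 11.6 to 23.3) and 14 had one within 1 kb of the start (8.97%, 5.42 to 14.5). Over all named genes these shares were 9.28% and 2.31%. A CpG island was held by 66.7% of the members' intervals, against 21 of the 31 ribosomal protein intervals (67.7%). The SUPT5H interval of height 93 was also assigned to RPS16 and counts in both sets. The members' median height was 30, or 25 without the 5 genes of known height, against 22 for the ribosomal protein intervals. Summits lay 1 kb or less from the start in 16 of 31 ribosomal protein pairs (51.6%). The members' share was 70.0%, or 66.7% without the 5 genes of known height. Among all pairs outside the members it was 20.9%. The differences in position and height were not tested.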

How the data were processed

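The deposited table lists intervals of a PPARG ChIP library (1) and of its input (1), both made from 4 pooled conceptuses. BWA and build Oar_v3.1 are named per the submitters' processing notes. For the peak caller, the threshold and the annotation, names are not given in the sources used. Heights are the highest signal of a density track per interval, as deposited by the authors, with no stated scaling; the total depth is unknown. CpG islands, promoters, genes and distances from summit to gene start are the authors' own entries.

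Python 3.11.15 and pandas 2.3.3 were used to read the table, scipy 1.17.1 gave the intervals and matplotlib 3.10.9 drew the plots. Gene names were matched by symbol or a synonym listed there to named protein-coding genes of the RefSeq table of ARS-UI_Ramb_v3.0, which served for names only. Of the 28 members 27 matched, DARS through a synonym; LSMD1 did not. One member (1 interval) is not reported here by name and counts only in the totals. Synthetase genes of the comparison list were also matched by their older names. Counting was tested on simulated data.

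Members with a summit within 1 kb of their start, a height of 40 or more, or 2 intervals were given in full by rule; the other members were added with their values in view. The members, families and comparison lists were chosen with earlier results of these data known, and ribosomal proteins after the values were seen. Promoter motifs were planned but not analysed here. Alternatives changed the window, the minimum height, shared intervals, input overlap, name matching and family membership.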

Additional observations from a re-analysis of the deposited data

How the results depend on the processing

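No paired analysis was possible because each condition has 1 library and no test was made. Counting only intervals assigned to a single gene moved all 5 summary values. The share within 1 kb of the start became 85.7%, against 17.6% of other pairs, and the share with a CpG island also became 85.7%, against 23.3% of other intervals. The median height became 42.5, over 14 intervals that included those of HNRNPH3, DARS, DENR and RBM39, whose heights were already known. No median was taken for other intervals under this setting. The family genes with such an interval fell to 5.88%, against 4.78% of all named genes, and those with one within 1 kb to 5.04%, against 1.03%. A window of 5 kb raised the share near the start to 86.7%, against 39.2% of other pairs. Restricting to intervals within 1 kb raised the share with a CpG island to 85.7%, against 84.3% of other intervals that near. Under the other alternatives, which left out each family, the genes of known height, DENR and DARS, LSMD1, genes of other roles, low intervals or those overlapping the input, or changed the name matching, the unit or the window, values stayed within their 95% intervals. The share near the start ran from 56.7% to 83.3%, the share with a CpG island from 62.5% to 77.3%, the median height from 25 to 34.5, the family share with an interval from 8.40% to 12.0% and that within 1 kb from 6.44% to 10.2%. Unknown read totals limit what low intervals can show.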

Other observations

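The interval of FAM48A, the older symbol of SUPT20H, had a height of 24, and ALG5 and EXOSC8 start nearer to its summit. Of other RNA-binding or splicing genes outside the prefixes and the comparison lists, RNPC3, a protein of the minor spliceosome, had 46 at 134 bp upstream, SRRT, of nuclear RNA processing, had 30 at 618 bp upstream and 21 at 7482 bp upstream, and SYNCRIP, an hnRNP under another symbol, had 13 at 1131 bp upstream. THRAP3 had 30 at 68158 bp downstream. These genes were picked after the table was seen and support no count.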
